A study of Rattus norvegicus with 4 samples.

Results

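The cytochrome P450 genes of the array were taken by name: every non-control probe whose gene name in the scanner files has the form of a P450 family number, a subfamily letter and a gene number, after trailing tags for predicted or mapped genes were removed. This gave 77 of 41012 array probes, in 64 gene names of the array design that correspond to 65 current rat symbols. The names were updated through the probes' accessions, because the array often used the name of a mouse relative, and 21 probes carried another symbol than the current one. Cyp51 fell outside the rule and is given with the related genes. The name alone chose the probes, and no measured value entered the choice. Of the 65 genes, 3 belong to the CYP1 family, 30 to CYP2, 5 to CYP3, 9 to CYP4 and 18 to other families.

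P450 enzymes are haem proteins that insert an oxygen atom into fats, steroids, retinoids, vitamin D, bile acid precursors, drugs and plant compounds. Most sit in the endoplasmic reticulum and take electrons from a shared reductase, and a smaller set works in mitochondria with ferredoxin as donor. Families CYP1 to CYP3 are best known for xenobiotics and answer to the aryl hydrocarbon receptor, the pregnane X receptor and the constitutive androstane receptor, while CYP4 enzymes hydroxylate fatty acids and leukotrienes. The gut lining carries its own selection of them, and inflammation is known to lower many hepatic and intestinal P450s.

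RNA came from the colon mucosa of rats of the inbred strain F344. The resveratrol + DSS group ate resveratrol, a plant polyphenol, at 1 mg/kg/day for 20 days and then drank 5% dextran sodium sulphate (DSS), which injures the colon lining, for 5 days. Each of 4 two-colour arrays set RNA of 2 of these 8 rats, in Cy5, against the control pool in Cy3, made from rats on standard chow that drank the same DSS. All rats compared therefore had DSS colitis, no healthy rats were on the arrays, and sex and age are not given in the sources used here.

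Values are log2 ratios, resveratrol + DSS over DSS pool, so that positive means higher with resveratrol. The pool counts as 1 control sample: the test of the mean ratio against 0 leaves out the spread among control rats, and with no dye exchange a dye effect and the treatment cannot be told apart. In bulk mucosa, fewer cells of a type and less RNA per cell cannot be told apart either. The 4 arrays lay on 2 slides, replicates 1 and 2 on the first and replicates 3 and 4 on the other. The share of spots with a signal well above background ran from 44.1% to 49.2% for Cy5 and from 42.8% to 57.1% for Cy3. Spots with an outlier flag numbered 1497 to 2029 on the first slide but 4784 to 5937 on the other.

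A smaller share of P450 probes than of all array probes was measurable in this colon mucosa. Both channels were well above background on all 4 arrays for 22 of the 77 probes (28.6%), against 35.7% of all array probes. A further 19 were above it in some channel or array, and 36 (46.8%) never were, against 36.9% of all probes. No P450 spot was saturated. By family, the probes above background throughout numbered 0 of 5 for CYP1, 12 of 39 for CYP2, 3 of 5 for CYP3, 4 of 9 for CYP4 and 3 of 19 for the other families. Per array, 29 to 33 P450 probes were well above background in the resveratrol + DSS channel and 26 to 37 in the DSS pool channel.

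**Figure D1:**
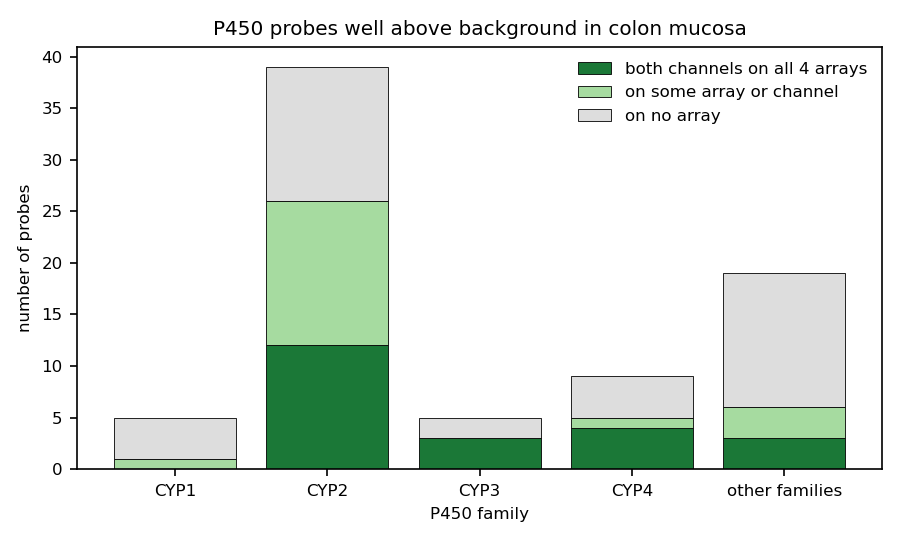
Number of P450 probes (vertical axis) in each family (horizontal axis), split by whether they were well above background in both channels on all 4 arrays, on some array or channel, or on no array. The CYP2 family holds 12 of the 22 probes in the darkest class, and no CYP1 probe is in it.

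The silent probes, those never well above background, included those of many hepatic and endocrine P450s. In CYP1 they were Cyp1a1 and Cyp1b1, inducible targets of the aryl hydrocarbon receptor, in CYP2 Cyp2e1, an ethanol and solvent oxidase, and all 4 probes of Cyp2c7, and in CYP3 the hepatic genes Cyp3a2 and Cyp3a23-3a1. Of bile acid synthesis, the probes of Cyp7a1, its rate-limiting enzyme, and of Cyp7b1, Cyp8b1 and Cyp39a1 were silent. So were those of the vitamin D enzymes Cyp27b1, which makes the active hormone, and Cyp24a1, which degrades it. The same held for the retinoic acid hydroxylases Cyp26a1 and Cyp26b1, the steroid genes Cyp11a1, Cyp11b1 and Cyp19a1, and Cyp46a1, the cholesterol hydroxylase of brain. The remaining genes with silent probes only were Cyp2a2, Cyp2c13, Cyp2c23, Cyp2c37, Cyp2c65, Cyp2d2, Cyp2r1, Cyp4a1, Cyp4a3, Cyp4f4 and Cyp4x1. Cyp1a1 and Cyp2e1 were each printed on 10 spots, and no Cyp1a1 spot on any array rose well above background, while 1 Cyp2e1 spot in the DSS pool channel of replicate 3 did, too few to count for the probe. Above background on too few arrays to be tested were Cyp2a1, Cyp2a3, Cyp2b12, Cyp2b21, Cyp2c12, Cyp2f4, Cyp2g1, Cyp2u1 and Cyp4a8. A silent probe does not show that its gene is off, since Cyp1a2 had both a silent and a tested probe.

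Of the 29 P450 probes that could be tested, which stand for 24 genes, 8 were higher in the resveratrol + DSS samples and 11 lower at an adjusted p of 0.05. That is 65.5% of the tested P450 probes, beside 47.1% of all 18869 probes tested on the array, where 24.4% were higher and 22.7% lower. The median log2 ratio was -0.14 over the P450 probes and -0.02 over all. Ratios had the same sign on all 4 arrays for 16 of the 29, beside 48% of all tested probes, and 11 were called with an absolute log2 ratio of at least 0.5, beside 28.8% of all. The largest called ratios, 0.67 for Cyp2c55 and -0.72 for Cyp2d4, were both below 1 in size. By gene, 8 genes had a higher probe, 9 a lower one and 0 both.

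CYP2C, CYP2D and CYP3A genes were called in both directions. Both tested CYP2J genes (Cyp2j3 with 1 of its 2 probes), 2 of 3 tested CYP3A genes, Cyp2c55, Cyp2d5, Cyp4f5 and Cyp27a1 were higher. The tested genes Cyp2b2, Cyp2b3, Cyp2d3, Cyp2d4, Cyp2c22, Cyp3a18, Cyp1a2, Cyp11b3 and Cyp21a1 were lower. With standard errors larger by a factor of the square root of 2, as an allowance for error in the pool, 3 probes stayed higher (Cyp2c55, Cyp4f5 and Cyp3a9), beside 7.72% of all tested probes, and 0 stayed lower, beside 3.84%. Median centring of the arrays in place of loess moved the median of all probes to 0.20. It gave 9 P450 probes higher and 4 lower of 29 tested, beside 36.3% and 9.75% of all. The share of P450 probes called was thus not above that of all probes under this centring. The 2 calls gained by it were Cyp4f1 (0.58, adjusted p = 0.00328) and Cyp17a1 (1.51, adjusted p = 2.44e-16). The 8 calls lost by it were those of Cyp27a1, Cyp2b3, Cyp2c22, Cyp2d3, Cyp2d4 probe a, Cyp3a18, Cyp11b3 and Cyp21a1. Under median centring the adjusted p followed the mean and hardly the spread between a probe's arrays. Cyp2j3 probe b and Cyp3a9, both at 0.70 there, had adjusted p of 0.000279 and 0.000304. Their ratios under loess had standard deviations of 0.33 and 0.14. The p-values of the 2 gained calls thus say little about how far the arrays of Cyp4f1 and Cyp17a1 lie apart. No called P450 probe changed sign under any of the alternatives.

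**Figure D2:**
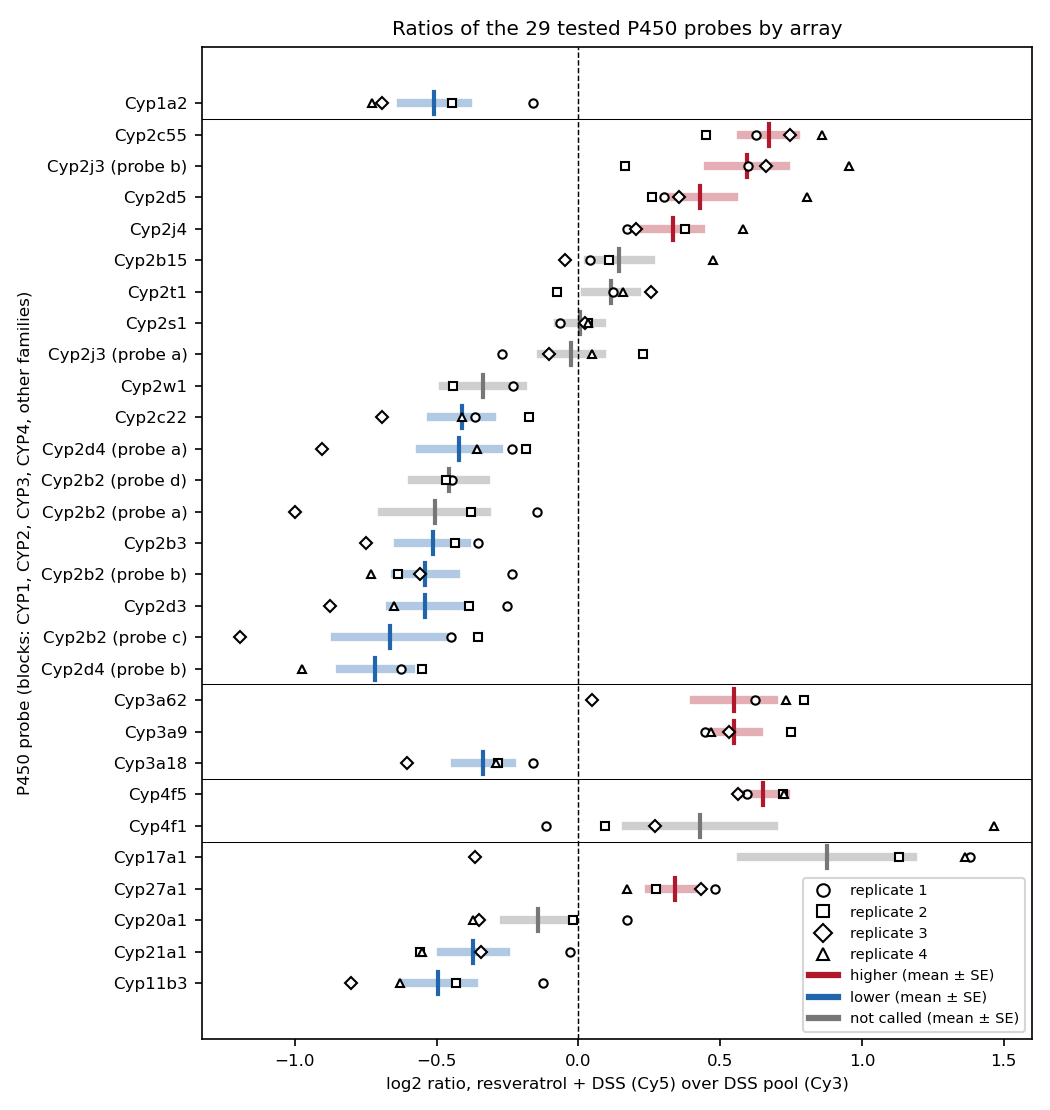
Log2 ratio of resveratrol + DSS over DSS pool (horizontal axis) for the 29 tested P450 probes (vertical axis), in blocks by family. Symbols are the arrays, vertical ticks the means and bars the moderated standard error. For Cyp2c55, Cyp4f5 and Cyp3a9 the arrays lie between 0.45 and 0.86, while the arrays of Cyp17a1 lie on both sides of 0.

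Markers of cell types were read on the same arrays, beside 24.4% of all tested probes higher and 22.7% lower. Summed signals are over the probes of a list with values on all 4 arrays, tested or not. They cover 11 colonocyte, 5 goblet cell, 10 fibroblast, 9 neutrophil, 11 monocyte and macrophage, 7 pancreas and 17 hepatocyte probes. Of 15 tested probes for absorptive colonocytes, the epithelial cells that carry much of the gut's P450 activity, 6 were higher and 0 lower (median 0.48). The summed colonocyte signal ran from 44946 to 74092 in the resveratrol + DSS channel and from 25634 to 43068 in the DSS pool channel. Of 5 goblet cell probes 2 were higher and 0 lower (summed signal 36521 to 55703 against 20326 to 36181). Of 11 tested fibroblast probes 9 were lower (summed signal 3158 to 6322 against 14771 to 20457). Of the tested probes of leukocytes, 4 of 4 for neutrophils were lower (median -1.31, summed signal 2219 to 5319 against 8734 to 14056), and for monocytes and macrophages 5 of 7 were lower and 1 higher (median -0.76, summed signal 3846 to 5659 against 4823 to 5162). Exocrine pancreas probes, a check for RNA from outside the mucosa, had 5 of 7 lower and 0 higher (median -0.91, summed signal 1582 to 1686 against 8131 to 9846). Endothelial probes had 3 of 5 lower and 0 higher (median -0.40), and of 6 smooth muscle probes 1 was lower and 0 higher (median -0.87). Cxcr2 and Pnlip were never well above background. Hepatocyte markers, the check for liver RNA, entered the test with 8 of 21 probes, of which 2 were lower and 0 higher. The summed hepatocyte signal, which takes in untested probes, was 2864 to 3239 against 3230 to 3842. Fga and Hpx were never well above background. The shares called among hepatocyte and smooth muscle probes, 25% and 16.7%, all lower, were near the 22.7% lower of all tested probes. As to the labelled tissue, all 14 colonocyte marker genes on the list were measured, and no healthy colon serves as a scale. The part of these shifts in the P450 ratios was not tested.

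In the CYP1 family the single measurable probe was lower. Cyp1a2, whose enzyme oxidises caffeine and aromatic amines and is a classical target of the aryl hydrocarbon receptor, gave normalized signals of 452, 150.3, 129 and 162 in the resveratrol + DSS channel of replicates 1 to 4 and 506, 205, 209 and 269 in the DSS pool channel. The log2 ratios were -0.16, -0.45, -0.69 and -0.73, so that all 4 arrays lay below 0. The mean was -0.51 ± 0.12 (moderated SE, n = 4, adjusted p = 0.0202). Here the resveratrol + DSS channel was well above background on 1 array and the DSS pool on 3. The call was lost without replicate 2 (adjusted p = 0.0662) or 4 (0.0568). A second probe of Cyp1a2 was above background on no array, so the lower value rests on 1 probe of the gene. The measured probe lies on the minus strand at chr8:61463157-61463778 in the rn3 build, where its 60 bases are spread over 622. It is shown because it carries the whole CYP1 result.
Cyp1a2 probe: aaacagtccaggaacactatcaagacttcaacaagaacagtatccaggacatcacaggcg

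Cyp2c55 had the highest called ratio of the P450 genes. Its mouse counterpart is a colonic enzyme that oxidises arachidonic acid. Signals were 361, 359, 539 and 408 in the resveratrol + DSS channel and 234, 263, 322 and 225 in the DSS pool channel, where the probe was well above background on 2 arrays. The log2 ratios of 0.63, 0.45, 0.75 and 0.86 were positive on every array, and the ranges of the channels did not overlap. The mean was 0.67 ± 0.10 (n = 4, adjusted p = 0.00645), a 1.59-fold difference, and the call held under every alternative that tested the probe, with adjusted p up to 0.0461. It did not enter where both channels had to be above background throughout. Another CYP2C gene went the other way: Cyp2c22, measured as Cyp2c70 in the array's naming, was lower at -0.41 ± 0.11 (n = 4, adjusted p = 0.026), and its call was lost without replicate 1 (adjusted p = 0.0795), 2 (0.055) or 4 (0.0623). The Cyp2c55 probe, on the minus strand at chr1:244614203-244614262 in rn3, and the 250 bases before its RefSeq start (GRCr8, plus strand, chr1:246421533-246421782) are shown, the promoter with AGGTCA, the half-site of many nuclear receptors, in capitals.
Cyp2c55 probe: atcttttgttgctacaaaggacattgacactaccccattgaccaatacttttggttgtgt
Cyp2c55 promoter: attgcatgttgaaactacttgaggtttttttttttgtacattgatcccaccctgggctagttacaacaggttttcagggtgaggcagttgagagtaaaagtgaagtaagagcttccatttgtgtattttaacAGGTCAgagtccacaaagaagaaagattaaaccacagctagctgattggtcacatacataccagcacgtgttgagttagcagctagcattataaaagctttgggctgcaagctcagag

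The CYP2J enzymes turn arachidonic acid into epoxides, and Cyp2j4 is a known P450 of the rat intestine. Cyp2j4 was higher at 0.33 ± 0.10 (n = 4, adjusted p = 0.039), a call lost without replicate 1 (adjusted p = 0.0798), 2 (0.141) or 4 (0.0936). Cyp2j3 was measured by 2 probes that disagreed. The probe called b gave signals of 441, 239, 493 and 512 in the resveratrol + DSS channel and 292, 214, 312 and 264 in the DSS pool channel. Its log2 ratios were 0.60, 0.16, 0.66 and 0.96, lowest on replicate 2. The resveratrol + DSS channel was well above background on 3 arrays and the DSS pool on 2. The mean of 0.59 ± 0.14 (n = 4, adjusted p = 0.0195) passed, but not without replicate 1 (adjusted p = 0.0643) or with the wider standard error (0.0865). Probe a had ratios of -0.27, 0.23, -0.10 and 0.05 on both sides of 0, with a mean of -0.02 ± 0.11 (adjusted p = 0.855). The probes lie at different places on the minus strand, b at chr5:116760465-116760524 and a at chr5:116749568-116749627 in rn3, so the gene's direction depends on which is read. The sequence of probe b is shown because the call rests on it.
Cyp2j3 probe b: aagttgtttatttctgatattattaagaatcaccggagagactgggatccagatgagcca

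Within the CYP2D cluster on chromosome 7, neighbouring genes went in opposite directions. CYP2D enzymes oxidise many basic drugs, and the rat has several copies where humans have a single active gene. Cyp2d5, named Cyp2d10 on the array, had ratios of 0.30, 0.26, 0.36 and 0.80, and was higher at 0.43 ± 0.12 (n = 4, adjusted p = 0.0293). Its DSS pool channel was well above background on 2 arrays only, so it entered the test through the resveratrol + DSS channel. Cyp2d3, named Cyp2d13, gave signals of 485, 487, 359 and 402 in the resveratrol + DSS channel and 577, 636, 658 and 631 in the DSS pool channel. All its resveratrol + DSS signals lay below all its pool signals, with ratios of -0.25, -0.38, -0.88 and -0.65. It was lower at -0.54 ± 0.12 (n = 4, adjusted p = 0.0188).

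Cyp2d4, named Cyp2d22, was lower with both of its probes. Probe b gave 159, 285 and 570.1 in the resveratrol + DSS channel of replicates 1, 2 and 4 and 246, 417 and 1120 in the DSS pool channel, the spot of replicate 3 being dropped for an outlier flag. The pool's own signal thus differed widely between arrays, while the ratios of -0.63, -0.55 and -0.97 were all negative. The mean was -0.72 ± 0.13 (n = 3, adjusted p = 0.0129). Probe a had -0.23, -0.19, -0.90 and -0.36, a mean of -0.42 ± 0.14 (n = 4, adjusted p = 0.0484), and lost its call when any 1 replicate was left out. Calls were also lost for probe b without replicate 1 (adjusted p = 0.0522), for Cyp2d3 without replicate 2 (0.0541) or 4 (0.0547), and for Cyp2d5 without replicate 1 (0.0716), 2 (0.0688) or 4 (0.0528).

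The CYP2D probes are shown because near-identical gene copies can share a probe. All lie on the minus strand in rn3, Cyp2d5 at chr7:120795542-120795601, Cyp2d3 at chr7:120815538-120815597, Cyp2d4 probe a at chr7:120777448-120777507 and probe b at chr7:120775863-120775922. Capitals in probe a mark CCTCAC, a hexamer described further on. The longest run of bases shared between a Cyp2d4 and the Cyp2d5 probe was 13 of 60, which was also the longest between probes of any 2 P450 genes. Probes were compared with each other only, not with the transcripts of other copies. The runs therefore cannot show whether a probe also binds another copy.
Cyp2d5 probe: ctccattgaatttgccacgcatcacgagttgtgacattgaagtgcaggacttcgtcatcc
Cyp2d3 probe: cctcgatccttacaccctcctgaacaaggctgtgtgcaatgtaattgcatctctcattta
Cyp2d4 probe a: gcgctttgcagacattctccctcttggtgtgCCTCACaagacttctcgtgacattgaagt
Cyp2d4 probe b: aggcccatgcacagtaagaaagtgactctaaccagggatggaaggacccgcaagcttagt

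The 250 bases before the start of Cyp2d5 and of Cyp2d3, from RefSeq (GRCr8, minus strand, chr7:115784488-115784737 and chr7:115802143-115802392), are nearly the same sequence. Aligned, they were 97.2% identical over 211 columns with an unbroken shared run of 112 bases, although the probes of the 2 genes gave ratios of opposite sign. The stretch before Cyp2d4 gave a best local alignment with that of Cyp2d5 over 17 columns only. Neither printed stretch holds GCGTG or AGGTCA on either strand.
Cyp2d5 promoter: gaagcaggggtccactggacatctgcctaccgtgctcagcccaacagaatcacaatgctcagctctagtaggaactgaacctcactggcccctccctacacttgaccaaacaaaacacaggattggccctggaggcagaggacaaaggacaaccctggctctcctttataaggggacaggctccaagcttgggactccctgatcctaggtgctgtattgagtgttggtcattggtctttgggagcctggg
Cyp2d3 promoter: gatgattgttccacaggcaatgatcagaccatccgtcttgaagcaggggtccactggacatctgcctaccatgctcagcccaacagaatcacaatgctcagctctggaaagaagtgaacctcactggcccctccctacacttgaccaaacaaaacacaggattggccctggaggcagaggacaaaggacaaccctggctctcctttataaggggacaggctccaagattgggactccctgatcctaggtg

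The CYP2B genes, known for induction by phenobarbital through the constitutive androstane receptor, had 3 lower probes, as many as CYP2D. Cyp2b2 was on the array with 4 probes, and all 4 mean ratios were negative. Probe b had ratios of -0.23, -0.64, -0.56 and -0.73 and was lower at -0.54 ± 0.11 (n = 4, adjusted p = 0.0131). Probe c, on replicates 1 to 3, had -0.45, -0.35 and -1.19, from signals of 299, 317 and 260.2 in the resveratrol + DSS channel and 409, 404 and 596 in the DSS pool channel. Its channels did not overlap, and replicate 3 lay farthest from 0, with a mean of -0.67 ± 0.19 (adjusted p = 0.041). Probe a averaged -0.51 ± 0.19 (n = 3, adjusted p = 0.0728) and probe d, with -0.45 and -0.47, averaged -0.46 ± 0.13 (n = 2, adjusted p = 0.0509), and neither passed. Flagged spots were dropped for probes a, c and d, and with those spots kept all 3 passed (adjusted p = 0.0212, 0.00681 and 0.0236). Under median centring b and c kept their calls, but probe a was at -0.30 (adjusted p = 0.215) and d at -0.002 (0.995). Of the other settings that tested them, probe a missed the threshold in 14 of 17 and probe d in 9 of 15.

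Cyp2b3 gave 342, 454 and 243 in the resveratrol + DSS channel and 438, 614 and 409 in the DSS pool channel on replicates 1 to 3, and its ratios of -0.36, -0.44 and -0.75 were all below 0. It was lower at -0.51 ± 0.12 (n = 3, adjusted p = 0.0259). Cyp2b15 was not called at 0.14 ± 0.11 (n = 4, adjusted p = 0.302), with 1 array below 0. Without replicate 2, calls were lost for Cyp2b2 probes b (adjusted p = 0.0608) and c (0.0677) and for Cyp2b3 (0.0892). Without replicate 1 they were lost for probe c (0.0823) and Cyp2b3 (0.069), and without replicate 4 for probe c (0.0512).

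The called Cyp2b2 probes are printed because the family's gene copies are alike and these letters are what the calls rest on. On the plus strand of rn3, Cyp2b2 probe b lies at chr1:81437019-81437078, probe c at chr1:81432830-81432889 and the Cyp2b3 probe at chr1:81263499-81263558. The longest run that probe b shares with a probe of another P450 gene is 13 of 60 bases, with Cyp2b21, which was not tested, and that of probe c is 9, with Cyp2b15. As for CYP2D, probes were not compared with transcripts, so binding to other copies cannot be judged from these runs. Capitals mark hexamers described further on.
Cyp2b2 probe b: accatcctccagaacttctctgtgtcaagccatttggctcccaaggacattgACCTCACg
Cyp2b2 probe c: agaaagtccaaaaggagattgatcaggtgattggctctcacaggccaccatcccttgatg

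The remaining tested CYP2 genes did not pass. Cyp2s1, a P450 of epithelia outside the liver that responds to the aryl hydrocarbon receptor, was at 0.01 ± 0.08 (n = 4, adjusted p = 0.957), with ratios of -0.07, 0.03, 0.02 and 0.03. Of the tested P450 probes it had the narrowest ratios among those measured on 4 arrays. Cyp2t1 was at 0.11 ± 0.09 (n = 4, adjusted p = 0.313). Cyp2w1, which in humans is known from colon tumours, was at -0.34 ± 0.14 (adjusted p = 0.113) on the 2 arrays of the first slide whose spots carried no flag.

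**Figure D3:**
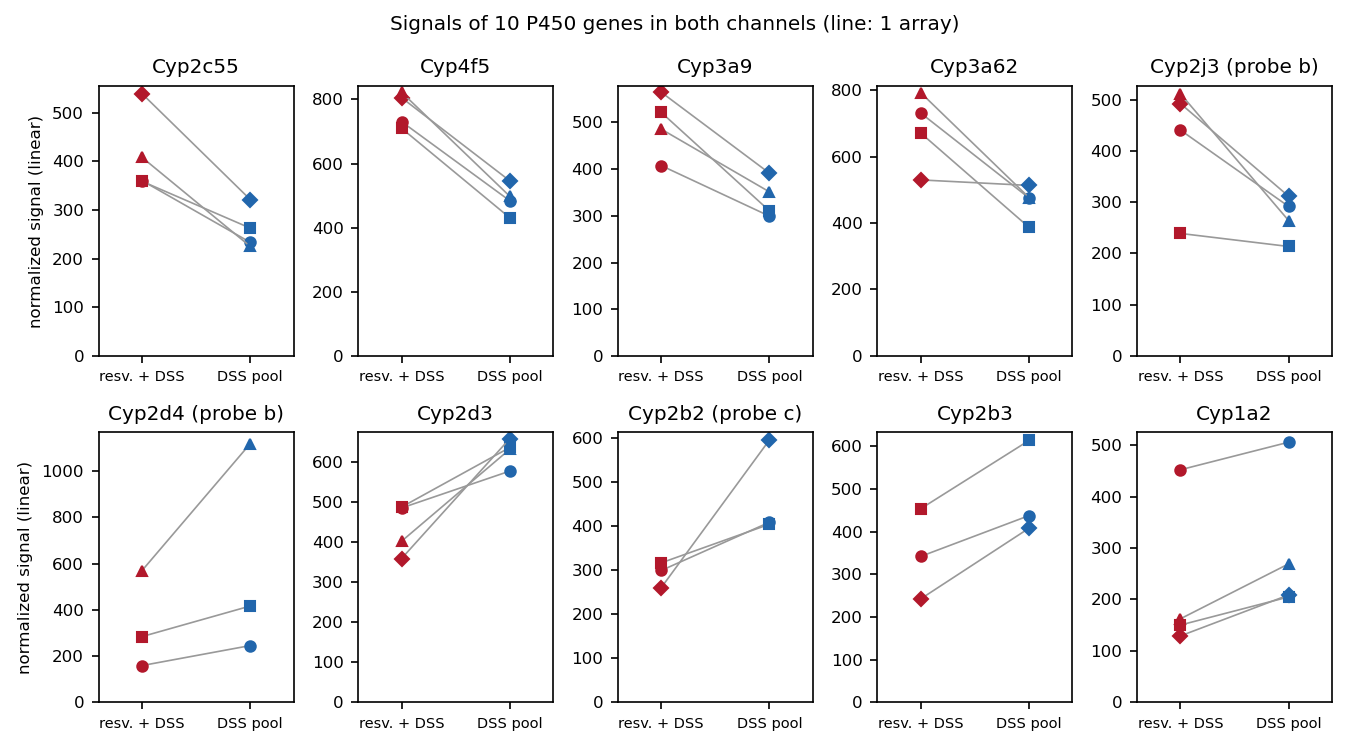
Normalized signal (vertical axes, linear, starting at 0) of 10 P450 probes in the resveratrol + DSS channel (left of each panel) and the DSS pool channel (right), with 1 line per array and a marker shape per replicate. All lines of Cyp2c55, Cyp4f5 and Cyp3a9 descend from the resveratrol + DSS side, and all lines of Cyp2d3 and Cyp1a2 rise toward the pool.

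In the CYP3A subfamily, which metabolises steroids, bile acids and a large share of drugs and is controlled by the pregnane X receptor, 2 genes were higher and 1 was lower. Cyp3a9, named Cyp3a13 on the array, and Cyp3a62 are known as the CYP3A forms of rat intestine. Cyp3a9 gave 408, 522, 565 and 486 in the resveratrol + DSS channel and 299, 311, 391 and 351 in the DSS pool channel, without overlap. Its ratios were 0.45, 0.75, 0.53 and 0.47, and the mean of 0.55 ± 0.09 (n = 4, adjusted p = 0.00826) missed the threshold on slide 2 alone (0.50, adjusted p = 0.0707) and under no other alternative. Cyp3a62 gave 731, 671, 530 and 792 in the resveratrol + DSS channel and 475, 387, 513 and 477 in the DSS pool channel. On replicate 3 the channels were almost level, so that its ratios were 0.62, 0.79, 0.05 and 0.73. The mean of 0.55 ± 0.14 (n = 4, adjusted p = 0.026) lost its call without replicate 1 (adjusted p = 0.0829), 2 (0.0956) or 4 (0.0751), and without replicate 3 it was at 0.72.

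Cyp3a18 was lower at -0.34 ± 0.10 (n = 4, adjusted p = 0.0383), with all arrays between -0.16 and -0.61. The call was lost when any 1 replicate was left out. The Cyp3a18 and Cyp3a62 probes cover a similar stretch and are shown because their ratios had opposite signs. They had 40 of 60 bases in common at the best ungapped placement, with 10 in an unbroken run, and both carry hexamers of the highest probes, in capitals. The Cyp3a18 probe lies on the minus strand at chr12:9117107-9117166 in rn3, and the files give no position for that of Cyp3a62.
Cyp3a62 probe: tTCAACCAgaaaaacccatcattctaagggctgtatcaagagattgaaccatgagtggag
Cyp3a18 probe: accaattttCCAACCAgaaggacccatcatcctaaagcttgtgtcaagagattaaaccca

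Of the CYP4 family, whose CYP4F members hydroxylate and so inactivate leukotriene B4, a neutrophil attractant, Cyp4f5 was higher. Its signals were 731, 710.1, 805 and 822 in the resveratrol + DSS channel and 484, 431, 546 and 498 in the DSS pool channel. The lowest resveratrol + DSS signal was above the highest pool signal, and the ratios of 0.60, 0.72, 0.56 and 0.72 spread less than those of any other called probe measured on 4 arrays. The mean was 0.65 ± 0.08 (n = 4, adjusted p = 0.00509), a 1.57-fold difference. The call was lost on slide 2 alone (0.64, adjusted p = 0.053) and under no other alternative.

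Cyp4f1, named Cyp4f2 on the array, gave 325, 318, 454 and 880 in the resveratrol + DSS channel and 353, 298, 376 and 318 in the DSS pool channel. Replicate 4 was far above the others, with ratios of -0.12, 0.09, 0.27 and 1.47. The mean of 0.43 ± 0.26 (n = 4, adjusted p = 0.204) did not pass. It did under median centring, where the adjusted p hardly reflects such a spread. Cyp4b1 and Cyp4f6 were above background in both channels on all 4 arrays, but 3 spots of each carried an outlier flag, which left too few values. The remaining spot of Cyp4f6, on replicate 1, gave 27193 in the resveratrol + DSS channel and 31028 in the DSS pool channel, a ratio of -0.19, and that of Cyp4b1, on replicate 2, gave 1488 and 1745, a ratio of -0.23. With the flagged spots kept Cyp4b1 was at -0.24 (adjusted p = 0.103) and Cyp4f6 at 0.20 (0.1).

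Among the other families, the mitochondrial Cyp27a1, which hydroxylates the side chain of cholesterol, was higher at 0.34 ± 0.09 (n = 4, adjusted p = 0.0284), with arrays from 0.17 to 0.48. Its resveratrol + DSS channel was well above background on 3 arrays and its DSS pool channel on 2. The steroid hydroxylase genes Cyp11b3 and Cyp21a1, known from the adrenal cortex, were lower at -0.50 ± 0.13 (adjusted p = 0.0251) and -0.37 ± 0.12 (adjusted p = 0.0419), with n = 4 each. Cyp11b3 lost its call without replicate 2 (adjusted p = 0.0741) or 4 (0.0707), Cyp21a1 without replicate 2 (0.165), 3 (0.0581) or 4 (0.114), and Cyp27a1 without replicate 1 (0.122), 2 (0.0939) or 3 (0.0511). Cyp11b2, the aldosterone synthase gene, was above background throughout but flagged on all 4 arrays, and with flagged spots kept it was at -0.73 (adjusted p = 0.0123). Cyp20a1, an orphan P450, was not called at -0.14 ± 0.12 (n = 4, adjusted p = 0.342).

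Cyp17a1, the enzyme that opens the way to androgens, had a larger mean ratio than any called P450 probe but did not pass. Its signals were 30488, 21803, 13141 and 22083 in the resveratrol + DSS channel and 11707, 9958, 16924 and 8595 in the DSS pool channel. The ratios were 1.38, 1.13, -0.36 and 1.36, so that replicate 3 was opposite to the other arrays. The mean was 0.88 ± 0.30 (n = 4, adjusted p = 0.0548). Without replicate 3 it was at 1.29 (adjusted p = 0.00143), and on slide 2 alone at 0.50 (adjusted p = 0.397). It passed under 9 of 18 other settings at the same threshold. Its probe, on the minus strand at chr1:252228687-252228746 in rn3, is shown because it holds a pair of overlapping hexamers of the highest probes, in capitals.
Cyp17a1 probe: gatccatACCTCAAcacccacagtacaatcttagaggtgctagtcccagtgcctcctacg

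How many P450 probes passed depended on the setting, and so did the share of all probes. At an adjusted p of 0.01 there were 3 higher and 0 lower of 29 P450 probes tested, beside 8.55% and 4.23% of all. With both channels well above background throughout there were 3 and 4 of 19 tested, beside 19.7% and 15%. On slide 2 alone there were 2 and 3 of 23, beside 5.16% and 6.92%. Leaving out replicate 1 gave 3 and 5 of 27, beside 12% and 9.32%. Leaving out replicate 2 gave 4 and 1 of 27, beside 12.1% and 8.7%. Leaving out replicate 3 gave 8 and 9 of 29, beside 25.5% and 22.6%. Leaving out replicate 4 gave 5 and 3 of 29, beside 21% and 15.6%. With outlier spots kept there were 9 and 13 of 32, beside 33.7% and 30.6%. With values on all 4 arrays required there were 9 and 8 of 23, beside 31.4% and 19.9%. Cyp2c55 was among the higher probes in each of these except with both channels required above background, where it was not tested.

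**Figure D4:**
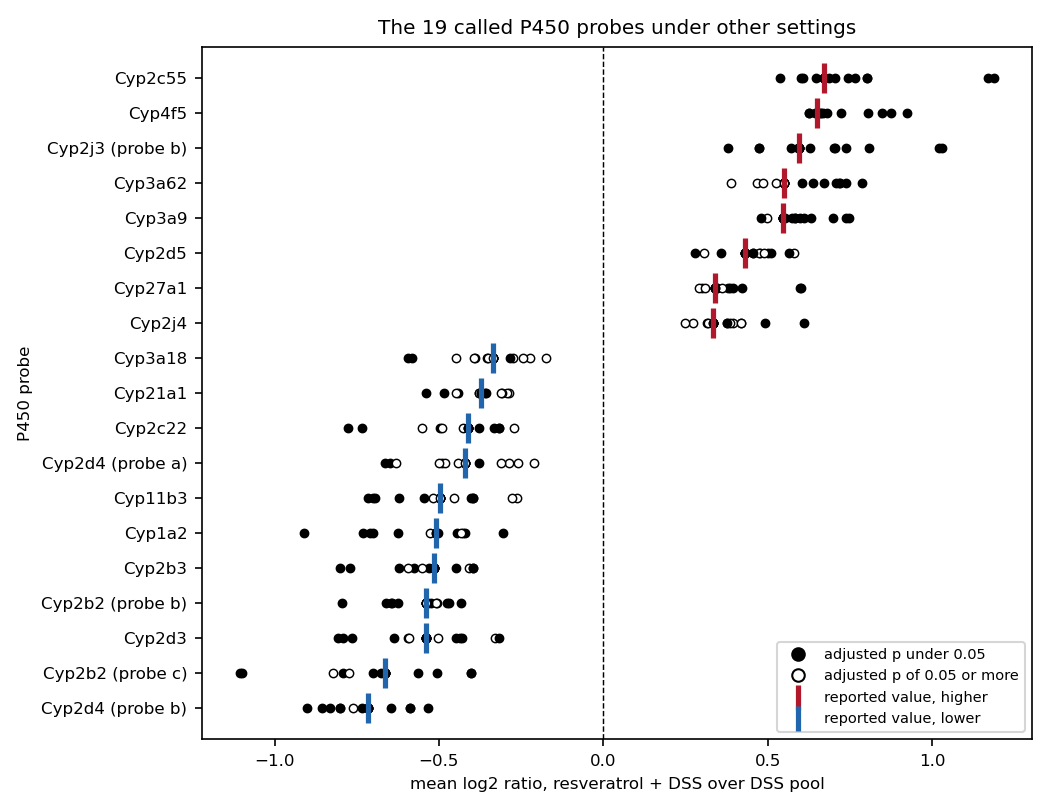
Mean log2 ratio of resveratrol + DSS over DSS pool (horizontal axis) of the 19 called P450 probes (vertical axis) under the alternatives run. Filled points had an adjusted p under 0.05, open points did not, and ticks mark the reported values. All points of a probe lie on the same side of 0, and the points of Cyp2c55 are all filled.

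Genes that serve or control P450s were taken from a list of 59 genes with 73 probes. Of 52 tested probes, 12 were higher and 9 lower (40.4%), with a median of 0.07, beside 47.1% called and a median of -0.02 over all tested probes. Por, the reductase on which most P450s depend, could not be tested, because 3 of its 4 spots were flagged, and the remaining replicate 2 gave -0.46. With the flagged spots kept Por was at -0.33 (adjusted p = 0.0298). Of its partners, the mitochondrial cytochrome b5 gene Cyb5b was higher with ratios of 0.72, 0.83, 0.90 and 0.47 and a mean of 0.73 ± 0.10 (n = 4, adjusted p = 0.00589), while its other probe was not tested. Cyb5r3, a cytochrome b5 reductase, had 2 probes that differed, 1.78 ± 0.20 (n = 4, adjusted p = 0.00451; ratios 2.17, 1.55, 1.16 and 2.25) with a hexamer and 0.17 ± 0.08 (adjusted p = 0.134) without. Cyb5r2 had ratios of -1.57, -1.44, -0.93 and -0.56 with no resveratrol + DSS spot well above background, which gives a fold only as a bound, at least 1.53-fold lower (adjusted p = 0.0078). The bound puts the mean of the pool over the weakest signal that still passed as well above background on each array, and it is open to dye bias.

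For the aryl hydrocarbon receptor pathway, Ahr itself could not be tested for the same reason as Por, and its remaining replicate 2 gave -0.62. With the flagged spots kept Ahr was at -0.69 (adjusted p = 0.00542). Its partner Arnt had ratios of 0.15, -0.00, -0.42 and -0.03, around 0, and was not called at -0.08 ± 0.11 (n = 4, adjusted p = 0.589). All 3 probes of the target Tiparp were never well above background, like Cyp1a1 and Cyp1b1. Nqo1, a quinone reductase that answers to this receptor and to Nrf2, had 0.60, 0.24, 0.31 and 0.50, all positive, and was higher at 0.41 ± 0.10 (n = 4, adjusted p = 0.0199). The chaperone gene Hsp90ab1 was called at 0.57 ± 0.13 on 2 arrays (0.59 and 0.56, adjusted p = 0.0317), while its other probe gave -0.17 (n = 3, adjusted p = 0.273). Nqo1 missed the threshold without replicate 1 (adjusted p = 0.0863), 2 (0.0567) or 4 (0.0542).

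Among the nuclear receptors, Nr1i2, the pregnane X receptor gene, had -0.18, -0.25 and -0.60 and did not pass at -0.34 ± 0.13 (n = 3, adjusted p = 0.0734). The vitamin D receptor gene Vdr was higher at 0.90 ± 0.14 (n = 4, adjusted p = 0.00727), with ratios of 0.93, 0.48, 0.90 and 1.28, on a probe with a hexamer. Hnf4a, which drives hepatic and intestinal genes, had a hexamer probe at 1.01 ± 0.19 (n = 4, adjusted p = 0.0112, ratios 1.48, 1.06, 0.32 and 1.19). Another, also with a hexamer, was at -0.46 ± 0.17 (adjusted p = 0.0674). With outlier spots kept that probe was at 0.25 (adjusted p = 0.0656), though none of its own spots was flagged. Whether the Hnf4a probes differ in sign thus depends on the setting. Rxra, the partner of most of these receptors, was the other called gene, at 0.66. Nr1i3, the constitutive androstane receptor gene, was not called at 0.03 (adjusted p = 0.798).

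The retinoic acid genes had 4 of 7 tested probes lower and 0 higher, beside 22.7% and 24.4% of all tested probes. The receptor genes Rarb and Rara were lower at -0.67 ± 0.12 (n = 3, adjusted p = 0.0128; ratios -0.65, -0.49 and -0.85) and -0.61 ± 0.18 (n = 4, adjusted p = 0.0371; ratios -0.23, -0.29, -1.24 and -0.66). A second Rarb probe was never well above background. Dhrs3, a retinal reductase, and Rbp2, an intestinal retinol carrier, were the other lower ones. Without replicate 1 all 4 missed the threshold, at adjusted p of 0.0593 for Rarb, 0.0543 for Rara, 0.0533 for Dhrs3 and 0.0697 for Rbp2. Without replicate 2 Rara, Dhrs3 and Rbp2 missed it (0.063, 0.069 and 0.0848), without replicate 4 Rara and Dhrs3 (0.0938 and 0.136), without replicate 3 Dhrs3 (0.0966), and under median centring all 4, with Rarb at -0.23.

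In haem supply and breakdown 4 of 13 tested probes were higher and 3 lower, beside 24.4% and 22.7% of all. Blvrb, a biliverdin reductase gene, was lower at -0.72 ± 0.13 (n = 3, adjusted p = 0.0138; ratios -0.96, -0.47 and -0.75). Urod, of haem synthesis, was higher at 0.55 ± 0.16 (n = 4, adjusted p = 0.0341; ratios 0.52, 0.34, 0.23 and 1.11), its other probe at 0.26 not passing. Fech and a probe of Hmox2 were also higher, while the other Hmox2 probe was not called at 0.22 (adjusted p = 0.0584). Uros and Hmox1, the inducible haem oxygenase, were lower, Hmox1 on the 2 arrays of the first slide only. Alas1, the entry enzyme of haem synthesis, was not called at -0.06 (adjusted p = 0.82). With outlier spots kept Alas1 passed at 0.59 (adjusted p = 0.00327), though none of its own spots was flagged. Without replicate 1 Blvrb (adjusted p = 0.0647), Urod (0.0878), Fech, Hmox2 and Uros missed the threshold, and Hmox1 was not tested there. Without replicate 2 the same held for Urod (0.0686), Fech, Hmox2 and Uros, without replicate 3 for Fech (0.0795), and without replicate 4 for Urod (0.0502), Fech and Uros. Under median centring Hmox1 was at -0.03 (adjusted p = 0.927), Uros at -0.15 (0.566) and Fech at 0.38 (0.0628).

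Of the mitochondrial electron donors Fdxr, the ferredoxin reductase gene, was lower at -0.51 ± 0.13 on 2 arrays (-0.54 and -0.49, adjusted p = 0.0401), and Ephx1, the microsomal epoxide hydrolase gene, was higher at 0.48 ± 0.10 (n = 4, adjusted p = 0.0148; ratios 0.72, 0.27, 0.43 and 0.50). Leaving out replicate 1 ended the Ephx1 call (adjusted p = 0.0653), and median centring the Fdxr call (-0.01, adjusted p = 0.975). Cyp51, the sterol demethylase of cholesterol synthesis, had 0.24, 0.33, -0.30 and -0.24, positive on the first slide and negative on the other. It was not called at 0.01 ± 0.14 (n = 4, adjusted p = 0.962). With outlier spots kept it passed at 0.41 (adjusted p = 0.00902), though none of its own spots was flagged. Tbxas1, the P450 that makes thromboxane, was not called at 0.13 (adjusted p = 0.233).

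The hexamers marked above were picked from the letters of the 200 highest probes of these same data. Each of the 15 stood in at least 10% of them, and at least 3 times as often as in all tested probes. ACCTCA, for example, was in 30% against 2.68%. Their excess among the highest probes is thus set by the choice and is no test. At least 1 of these hexamers was carried by 9 of the 29 tested P450 probes (31.0%), beside 18.8% of all tested probes. Of these 9 P450 probes 1 was higher, 4 were lower and the median ratio was -0.34. Of the 20 without a hexamer 7 were higher and 7 lower, with a median of -0.08. Median GC content was 40.8% in the higher P450 probes, 48.3% in the lower and 49.2% in those not called. The part of base composition in these ratios was not tested.

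The RefSeq table held 52 promoter entries for the 65 P450 genes, and a gene can have more than 1 entry. GCGTG, the core bound by the aryl hydrocarbon receptor with Arnt, was searched on both strands of the 250 bases before the start and stood in 28.85% of the 52, beside 25.89% of all 33469 promoters. It was in 1 of 8 promoters of genes with a higher probe and in 1 of 8 of those with a lower probe. AGGTCA, searched the same way, stood in 36.54% of the 52 P450 promoters beside 14.06% of all, in 2 of the 8 for genes with a higher probe and in 3 of the 8 with a lower one. Of the 9 genes with a lower probe, Cyp11b3 had no entry. The motifs do not overlap in letters, and a match is a description of sequence, not of binding. Copies of a gene share promoter sequence, as Cyp2d5 and Cyp2d3 do, so these promoters are not independent of each other.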

How the data were processed

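Colon mucosa RNA was measured on 4 two-colour Agilent arrays of 60-base probes. Agilent Feature Extraction 9.5.3.1 made the deposited spot intensity values, with probe positions in the rn3 build, per the file headers. The log10 ratio of each spot, deposited beside them, was that software's own and was used only to find the scale of the value table. The submitters' processing notes also name limma. The authors' deposited log2 value table, which tracked the scanner log ratios (r from 0.981 to 0.992, slope from 0.972 to 1.002), has column medians of -0.01, -0.01, 0.09 and -0.02; its centring is not stated, and it served as an alternative.

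From mean signals and local background medians, normexp (offset 50) and loess were run in limma 3.58.1 (R 4.3.3), with control spots (1639 of 45018) and outlier-flagged spots at weight 0 and flagged spots left out. Spots of a probe were averaged. Probes needed a signal well above background in either channel on 3 arrays and 2 values. A probe could thus enter through a single channel, as Cyp1a2, Cyp2c55, Cyp2d5, Cyp2j3 probe b, Cyp27a1, Ephx1, Fech and Cyb5r2 did. Mean ratios were tested against 0 by lmFit and eBayes, two-sided, with Benjamini-Hochberg adjustment over all 18869 probes. Channel signals were scaled by Aquantile. Errors are moderated standard errors, which lean on the other probes, most of all where 2 values remain. Replicates 1 to 4 are named in accession order.

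P450 names came from a RefSeq gene table (GRCr8) for 61 probes by accession and 14 by symbol, and 2 kept the file's name (Cyp2c37, Cyp2c65). Members and lists were chosen with earlier results of these data known. All P450 genes with a tested probe are named. Values per array are given for called probes of at least 0.5 in size, for measured CYP1 probes, for the probe of highest mean signal in each family group, for the 2 largest called related probes per sublist and always for Ahr, Arnt, Nr1i2, Por, Nqo1 and Cyp51. Ahrr, Ptges3 and Rarg were not found by name. Promoters were aligned with Biopython. The fit was tested on simulated data. A related gene is not reported here.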

Additional observations from a re-analysis of the deposited data

Results flagged for a closer look

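Of 23 P450 probes measured on 4 arrays, 2 had an array that stood apart by Dixon's test, and chance alone sets apart about 1 group in 20. For Cyp17a1 the gap between replicate 3, at -0.36, and the nearest other array took up 0.857 of the whole range, above the critical value for 4 samples. For Cyp2s1 the gap between replicate 1, at -0.07, and the next took up 0.904 of a range that is itself narrow, since the other arrays lay between 0.02 and 0.03. Neither probe was called, and Cyp17a1 passed without replicate 3 (1.29, adjusted p = 0.00143).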

How the results depend on the processing

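None of the 19 called P450 probes changed sign under the alternatives run, yet most calls lie near the threshold. In place of 8 higher and 11 lower P450 probes there were 3 and 0 with the standard error times the square root of 2, 3 and 0 at an adjusted p of 0.01, 3 and 4 with both channels above background on all arrays, 2 and 3 on slide 2 alone, and 4 lower under median centring. Leaving out each replicate gave 3 to 8 higher and 1 to 9 lower: 3 and 5 without replicate 1, 4 and 1 without replicate 2, 8 and 9 without replicate 3, 5 and 3 without replicate 4. For the related genes, in place of 12 higher and 9 lower, these gave 3 and 1 with the wider error, 4 and 1 at 0.01, 4 lower with both channels above background, 2 and 3 on slide 2 alone, 20 and 18 when outlier spots stayed in, 19 and 2 after median centring, and 4 lower with values on all 4 arrays, and 5 to 11 higher and 1 to 10 lower with a replicate left out. Without replicate 1 the related genes numbered 5 higher and 1 lower and without replicate 2 they numbered 6 and 3. The shares of all probes moved too, to 33.7% higher and 30.6% lower with outlier spots kept, where 58 related probes were tested. Under median centring they were 36.3% and 9.75%, with 52 related probes tested. For the other settings the shares of all probes and the numbers of P450 probes tested, given above, stand beside these counts. Settings that leave out arrays or probes test fewer of them by construction, and the cause of the other shifts was not tested. Plain background subtraction, processed signals, array weights, an intensity trend, slide as random block, slide 1 alone, the authors' deposited table, no filter on dim probes and leaving out hexamer probes kept all 4 counts within 1.5 times. With no filter, however, 74 P450 probes were tested in place of 29, with 8 higher and 16 lower beside 15.3% and 15% of all. The deposited table tested 44 P450 probes and the fit without hexamer probes 20, so like counts are other shares there. With slide as a random block 5 of the 19 calls were lost. Probe brightness limits detection, since 36 of 77 P450 probes were never well above background. No paired analysis was possible because the arrays form a single group against 1 pool and share no replicate numbers with another group.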
